A study of Mus musculus with 6 samples.

Results

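Close neighbouring gene pairs were examined for E2F1 binding in mouse fibroblasts. A pair was formed by adjacent, non-overlapping protein-coding genes of the assembled chromosomes whose facing boundaries lie at most 1000 bp apart in the RefSeq annotation of GRCm38. The rule was met by 2009 pairs. They involve 3635 of the 21887 protein-coding genes. The region of a pair was the gap between both genes plus 500 bp on either side, and a pair is called bound here when its region overlaps a listed peak in both E2F1 libraries by at least 1 bp. The strand of both genes was known for most pairs: 567 were head-to-head (both transcription starts face the gap), 444 tandem (one start and one end face it) and 427 tail-to-tail (both ends face it), and 571 had no strand for at least 1 gene. The rule used gene positions alone and no measured value. The median gap was 248 bp over all pairs, 100 bp in head-to-head pairs, 448 bp in tandem pairs and 374 bp in tail-to-tail pairs.

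Binding was measured by ChIP-seq, in which DNA bound by E2F1 is pulled down with an antibody and sequenced, in NIH/3T3 cells, an established fibroblast line from mouse embryos. The labels describe a doxycycline-inducible E2F1 construct (E2F1, 2 libraries) and an empty vector (EV, 2 libraries). Both groups were starved in 0.25% serum for 48 hours and received, per the labels, doxycycline at 500 ng/ml for 12 hours, although the names of the deposited lists carry another number for the drug, so both share the starvation and the drug. The induced protein comes from a construct, and the antibody is not given in the sources used here, so introduced and endogenous E2F1 cannot be told apart. Nothing in the labels says that the replicates are separate cultures. The authors' lists hold 7836 and 8027 peaks in E2F1 replicates 1 and 2 and 70 and 358 peaks in EV replicates 1 and 2. In each list the smallest deposited −log10 p lay between 10.0001 and 10.0187, so weaker sites are missing, and a region without a listed peak is not a region without signal.

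E2F1 is the founding member of a family of transcription factors. It binds DNA as a dimer with a DP partner, and RB holds it inactive in resting cells. Released E2F activates genes for DNA synthesis, DNA repair and mitosis as cells leave quiescence. In head-to-head pairs a short stretch of DNA between both starts serves as a bidirectional promoter, often rich in CpG, and many genes of DNA repair and mitochondrial function are arranged this way. Tail-to-tail pairs face each other with their ends and share no promoter, which makes them a natural comparison for position within the pair.

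The stretch between both starts is what members of a head-to-head pair share, so the gaps of pairs that stand for 3 situations are printed here, read from the RefSeq promoter windows of GRCm38.p6 on the plus strand, 5′ to 3′. Capitals mark matches to a short E2F core, which is TTCCCGC, its variant TTCGCGC, its variant TTGCCGC or its variant TTGGCGC, searched on both strands, so that a match on the minus strand reads as its reverse complement. Only gaps of 50 to 250 bp that lie whole inside 1 RefSeq promoter window of either gene could be shown, which leaves out strong pairs such as Hnrnpa2b1/Cbx3. The first set are, among these, the called pairs with the highest mean score percentile whose gap holds a core.
Tcf19/Cchcr1 (chr17:35516838-35517048): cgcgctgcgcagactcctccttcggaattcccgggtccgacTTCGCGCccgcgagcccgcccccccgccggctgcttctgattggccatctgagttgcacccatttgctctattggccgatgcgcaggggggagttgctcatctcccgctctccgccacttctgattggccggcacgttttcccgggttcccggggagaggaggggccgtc
Ranbp1/Trmt2a (chr16:18248695-18248846): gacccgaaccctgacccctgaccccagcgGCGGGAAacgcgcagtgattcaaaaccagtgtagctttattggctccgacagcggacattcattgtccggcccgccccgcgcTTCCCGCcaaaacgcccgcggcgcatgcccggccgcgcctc
Exosc8/Alg5 (chr3:54735365-54735538): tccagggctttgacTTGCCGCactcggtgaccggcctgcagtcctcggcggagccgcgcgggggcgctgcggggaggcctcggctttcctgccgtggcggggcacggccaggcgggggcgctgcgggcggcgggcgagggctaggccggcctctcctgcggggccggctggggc
Rbbp4/Zbtb8os (chr4:129335371-129335531): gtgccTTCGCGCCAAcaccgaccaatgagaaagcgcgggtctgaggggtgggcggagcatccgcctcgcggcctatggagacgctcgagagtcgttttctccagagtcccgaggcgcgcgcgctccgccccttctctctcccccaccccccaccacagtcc

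Tcf19/Cchcr1 had the highest mean score percentile of all head-to-head pairs. In Ranbp1/Trmt2a a core match stands on each strand, and in Rbbp4/Zbtb8os 2 matches on opposite strands overlap in 1 run of capitals. The peak summit, where the pileup is highest, lay in the printed gap in both E2F1 libraries at Tcf19/Cchcr1 and Ranbp1/Trmt2a. At Rbbp4/Zbtb8os it did so in replicate 2 only, and at Exosc8/Alg5 in neither. A marked core is therefore not read as the bound place. The next set are, among the same gaps, the highest called pairs whose gap holds no core, Pcna/Cds2 among them. No match says only that these letters are not in the stretch between both starts. Pcna/Cds2, Fhl4/Tmem263 and Ncapd2/Mrpl51 had their summits outside the printed gap in both E2F1 libraries.
Pcna/Cds2 (chr2:132253181-132253337): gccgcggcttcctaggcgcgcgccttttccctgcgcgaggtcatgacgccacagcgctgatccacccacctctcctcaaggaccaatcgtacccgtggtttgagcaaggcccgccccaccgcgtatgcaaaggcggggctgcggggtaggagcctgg
Fhl4/Tmem263 (chr10:85102496-85102626): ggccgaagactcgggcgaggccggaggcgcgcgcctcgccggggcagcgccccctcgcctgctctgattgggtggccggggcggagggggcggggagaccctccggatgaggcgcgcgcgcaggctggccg
Ncapd2/Mrpl51 (chr6:125192101-125192199): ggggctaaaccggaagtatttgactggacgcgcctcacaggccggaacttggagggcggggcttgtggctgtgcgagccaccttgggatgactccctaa

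The last set are the head-to-head pairs with a cell-cycle or repair gene that had a peak in neither E2F1 list. Both gaps are GC-rich and hold CpG, and neither holds a core.
Cenpj/Parp4 (chr14:56575490-56575618): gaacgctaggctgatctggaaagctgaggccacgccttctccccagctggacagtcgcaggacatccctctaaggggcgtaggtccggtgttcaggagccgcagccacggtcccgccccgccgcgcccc
Cetn2/Nsdhl (chrX:72918345-72918520): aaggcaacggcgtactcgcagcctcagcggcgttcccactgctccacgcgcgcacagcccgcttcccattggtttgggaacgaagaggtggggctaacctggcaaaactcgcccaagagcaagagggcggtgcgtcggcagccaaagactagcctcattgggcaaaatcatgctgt

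A peak was listed in 732 of the 2009 pair regions (36.4%) in E2F1 replicate 1 and in 761 (37.9%) in replicate 2. EV replicate 1 had 0 such regions, which allows a share of up to 0.149% for counting error, and EV replicate 2 had 1 (0.0498%). The share was 37.2% ± 1.02 (SD, n = 2) in E2F1 libraries and 0.0249% ± 0.0352 (SD, n = 2) in EV libraries. The groups did not overlap, and the difference of 37.1 percentage points had a two-sided exact permutation p of 0.333, the smallest that 2 libraries against 2 can give. That p measures the spread between these libraries only, which may be technical.

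Both E2F1 lists held a peak at 674 pairs (33.5%, Wilson 95% interval 31.5% to 35.6%), while 15% of the 43774 boundaries of all protein-coding genes did, each taken with 500 bp on either side. A pair region contains 2 boundaries, so its share is not read against that figure as an enrichment. All intervals given here cover counting error only, since regions are not replicates. Single libraries gave 16.3% and 16.8% of all boundaries in E2F1 replicates 1 and 2, and 0.00228% and 0.0366% in EV.

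The pairs differed by orientation. A peak stood in 397 (70.0%) and 416 (73.4%) of the 567 head-to-head regions in E2F1 replicates 1 and 2, and in both lists in 376 (66.3%, interval 62.3% to 70.1%). For tandem pairs the shares were 34.2% and 33.8%, and both lists agreed on 134 (30.2%, interval 26.1% to 34.6%). Only 6 and 4 of the 427 tail-to-tail regions held a peak in the respective libraries, and 4 did in both (0.937%, interval 0.365% to 2.38%). The intervals of the 3 orientations do not overlap. Among pairs of unknown orientation, which mix all 3, 160 (28.0%) were called. Neither EV library had a peak in a head-to-head region, which allows up to 0.529% of them.

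**Figure D1:**
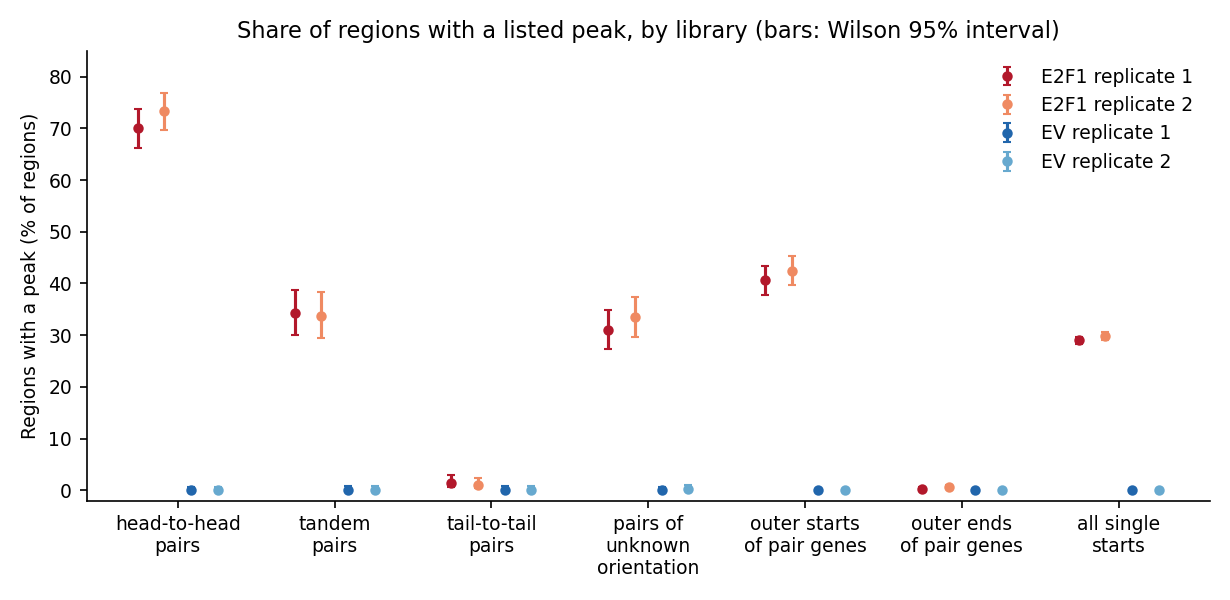
Share of regions with a listed peak (vertical axis, percent of regions) for pairs by orientation, for the outer boundaries of the same genes and for all single starts, with 1 point per library and Wilson 95% bars. Head-to-head pairs sit at 70.0% and 73.4% in the E2F1 libraries, tail-to-tail pairs and outer ends lie near 0, and both EV libraries lie near 0 everywhere.

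The far boundaries of the same genes gave a comparison within genes. Of the 4018 outer boundaries of pair genes, 3189 have a window of 500 bp on either side that touches no pair region. A peak in both E2F1 lists was found at 537 of these (16.8%, interval 15.6% to 18.2%). The facing share exceeded the outer share by 16.7 percentage points with both lists required, by 18.1 and 18.6 points in E2F1 replicates 1 and 2, and by 0 and 0.0498 points in EV replicates 1 and 2. The difference was 18.4 ± 0.333 points (SD, n = 2) in E2F1 and 0.0249 ± 0.0352 points (SD, n = 2) in EV, with an exact two-sided permutation p of 0.333. An outer window is narrower than a pair region, and with facing regions of equal width the difference with both lists required was 15.8 points. A facing region also holds 2 gene boundaries and an outer window 1, so these differences do not compare like with like. In the 1289 pairs with both outer boundaries usable, 34.2% were called at the facing side and 28.0% at 1 or more outer boundaries.

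On both sides, peaks were at gene starts and seldom at gene ends. Among outer boundaries with known strand, 447 of 1200 starts (37.3%) and 4 of 1413 ends (0.283%) had a peak in both lists. For comparison, 29.6% of all starts and 1.06% of all ends of protein-coding genes with known strand were called. In 399 head-to-head pairs with both outer boundaries usable, 268 had a peak at the facing side only, 0 at an outer side only, 2 at both and 129 at neither. In 277 tail-to-tail pairs the picture was turned around, with 0 at the facing side only, 168 at an outer start only, 1 at both and 108 at neither. The 252 tandem pairs lay between, with 48 facing only, 65 outer only, 22 both and 117 neither.

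Tandem pairs hold both kinds of start at once, 1 facing the neighbour's end and 1 at the far side of the upstream gene. In 342 tandem pairs where both could be scored, the facing start was called in 97 (28.4%) and the outer start in 124 (36.3%). Both were called in 33 pairs, the facing start alone in 64, the outer start alone in 91 and neither in 154. A start next to another gene's end was thus not called more often than the start of that other gene. The outer starts of tail-to-tail pairs were called in 256 of 678 (37.8%), and the outer ends of head-to-head pairs in 2 of 945 (0.212%).

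Compared with single starts, meaning starts whose window of 500 bp on either side touches no pair region, head-to-head pairs were called more often. Of 15702 single starts, 4196 were called (26.7%). The head-to-head share exceeded the single-start share by 41.0 and 43.5 points in E2F1 replicates 1 and 2, and the same difference was -0.00637 and -0.0382 points in EV replicates 1 and 2, which have almost no peaks at either. The E2F1 difference was 42.3 ± 1.77 points (SD, n = 2), with an exact two-sided permutation p of 0.333 against EV. A pair region offers 2 starts to a peak. Starts were also scored one at a time in windows of equal width, which does not remove this. In that scoring 745 of 1134 head-to-head starts (65.7%) and 132 of 444 tandem facing starts (29.7%) were called. The count of starts is not a count of independent sites, because partners in a pair mostly share 1 peak. Most head-to-head windows also hold the partner's start, since 526 of the 567 head-to-head gaps are at most 500 bp. The share of head-to-head starts and that of single starts therefore do not compare like with like.

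Head-to-head starts also carry more CpG. The promoter window used here runs from 250 bp before to 50 bp after the annotated start, and 1037 of the 1134 head-to-head starts have a window that lies within 500 bp of the gene boundary. The median number of CpG in it was 24 at head-to-head starts, 16 at tandem facing starts and 11 at single starts. Called starts were the CpG-richer ones in each class: medians were 26 against 20 at head-to-head starts, 22 against 11 at tandem facing starts and 25 against 5 at single starts.

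Within ranges of CpG the gap between classes was smaller. With 0 to 9 CpG, 11 of 59 head-to-head starts (18.6%) and 160 of 6343 single starts (2.52%) were called. With 10 to 19 CpG, the shares were 55.0% of 269 and 31.7% of 2737. With 20 to 29 CpG, they were 65.6% of 419 and 55.8% of 2633. With 30 or more CpG, they were 87.6% of 290 and 74.9% of 1856. Head-to-head starts stood above single starts in each of the 4 ranges, by 16.1, 23.3, 9.84 and 12.6 points, and the counting intervals of both classes did not overlap when every start was counted. Taking only the left gene of each pair, the head-to-head shares were 21.9%, 57.8%, 63.9% and 89.1% in the same order. The interval for 20 to 29 CpG then ran from 57.2% to 70.2% and overlapped that of single starts, 53.9% to 57.7%. Tandem facing starts lay close to single starts, at 4.76%, 34.7%, 55.7% and 81.5%. The part of CpG in the difference between classes was not tested beyond these ranges. Most head-to-head windows scored for a peak also hold the partner's start, and the part of that second start was not tested.

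**Figure D2:**
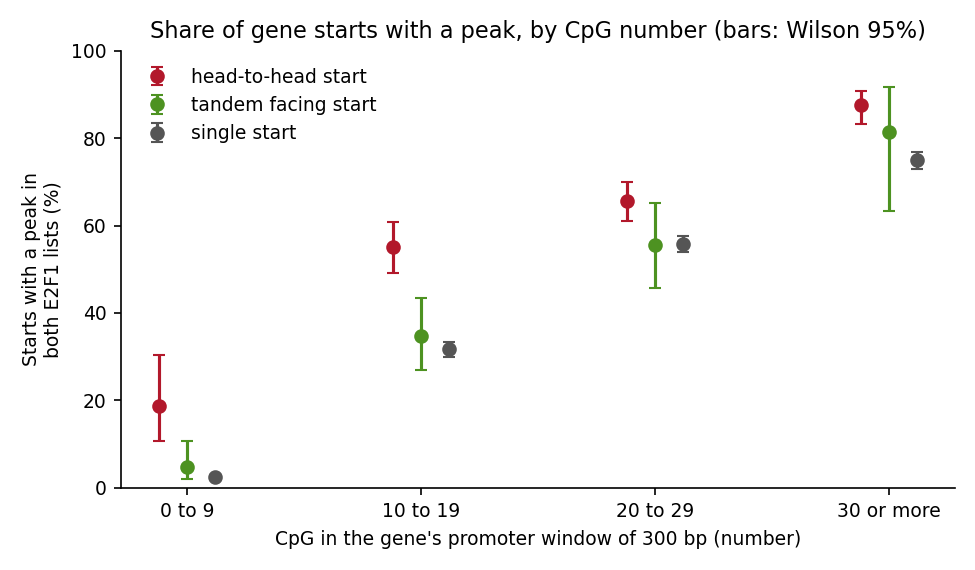
Share of gene starts with a peak in both E2F1 lists (vertical axis, percent) by the number of CpG in the promoter window of 300 bp (horizontal axis), for head-to-head, tandem facing and single starts, with Wilson 95% bars. All classes climb with CpG, and head-to-head starts lie highest in each range, from 18.6% to 87.6%.

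The distance between both starts made less difference than orientation. Among head-to-head pairs, 204 of 284 (71.8%) with a gap of 0 to 100 bp were called, 97 of 161 (60.2%) with 101 to 250 bp, 54 of 81 (66.7%) with 251 to 500 bp and 21 of 41 (51.2%) with 501 to 1000 bp. The shares do not fall in steady order and the intervals of neighbouring ranges overlap. The outermost ranges differ by more than their intervals, 66.3% to 76.7% against 36.5% to 65.7%, and the median CpG number of the windows fell from 25 to 17 over the same ranges. Its part in that difference was not tested. In tandem pairs the shares were 17.5%, 38.5%, 24.1% and 34.2%, with no order by gap. At least 1 of the tail-to-tail pairs was called in 3 of the 4 ranges, and never more than 2.

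**Figure D3:**
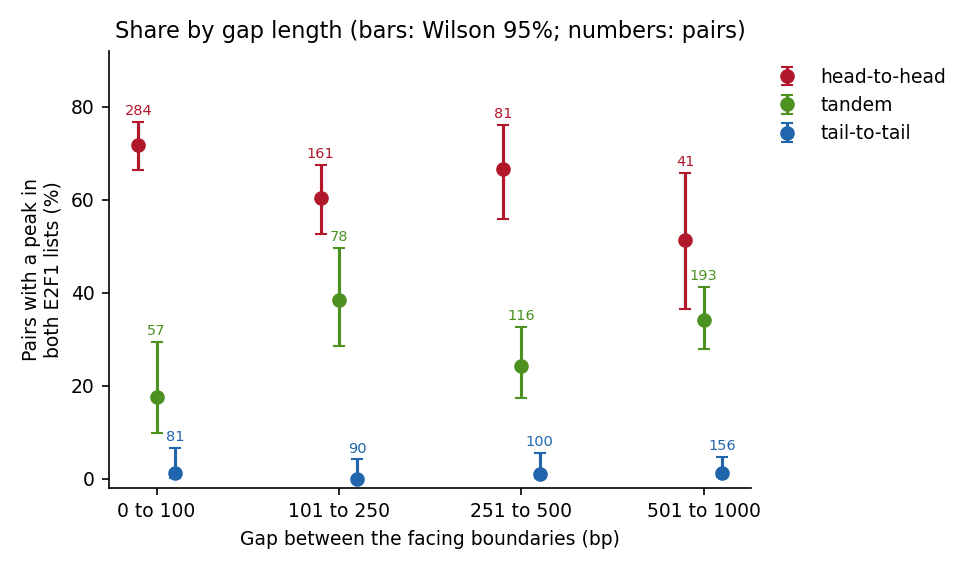
Share of pairs with a peak in both E2F1 lists (vertical axis, percent) by gap length in bp (horizontal axis) for 3 orientations, with Wilson 95% bars and the number of pairs above each. Head-to-head pairs run from 71.8% at the shortest gaps to 51.2% at the longest, and tail-to-tail pairs stay near 0.

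Of 5 head-to-head pairs whose annotated starts touch, with a gap of 0 bp, 3 were called, and Smpd2/Ppil6 and Klhl18/Kif9 had a peak in neither list. Tcta/Rhoa, which pairs the small GTPase RhoA with its neighbour, had folds of 23.7 and 29.9 in E2F1 replicates 1 and 2. Capza1/St7l, with an actin-capping subunit, had folds of 15.4 and 18.4, and Ears2/Ubfd1, with a mitochondrial glutamyl-tRNA synthetase, had 8.22 and 8.75. Fold is the authors' enrichment of the highest-scoring peak over the local background. By chromosome, the head-to-head share ran from 40% on X (6 of 15 pairs) to 87.1% on chromosome 1 (27 of 31 pairs).

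The medians of peak strength at head-to-head pairs lay close to those at single starts. The median fold was 9.93 and 12.7 in E2F1 replicates 1 and 2 at called head-to-head pairs, 9.86 and 10.4 at called tandem pairs, and 10.1 and 13.1 at called single starts. By rank, the median head-to-head peak stood at percentile 51.8 and 56.0 of its list and the median single-start peak at percentile 57.0 and 57.5. The upper 10% of each list took in 9.04% and 10.4% of the head-to-head peaks and 12.1% and 12.0% of the single-start peaks. The median width was 1057 and 940 bp at head-to-head pairs, 1000.5 and 885.5 bp at single starts and 802.5 and 695 bp at tandem pairs.

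The replicates listed mostly the same pairs. Of 819 pairs with a peak in either E2F1 list, 674 (82.3%) had one in both, 58 in replicate 1 only and 87 in replicate 2 only. Pairs found in 1 list only had weaker peaks, with median folds of 6.29 and 6.02, against 9.91 and 12.3 for pairs found in both. Over the 674 called pairs the fold ranged from 3.85 to 57.9 in replicate 1 and from 3.65 to 127.7 in replicate 2, and it was higher in replicate 2 at 444 pairs (65.9%). The Spearman correlation of the score between replicates was 0.83 over these pairs, given as a description since the pairs were chosen for a peak in both.

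**Figure D4:**
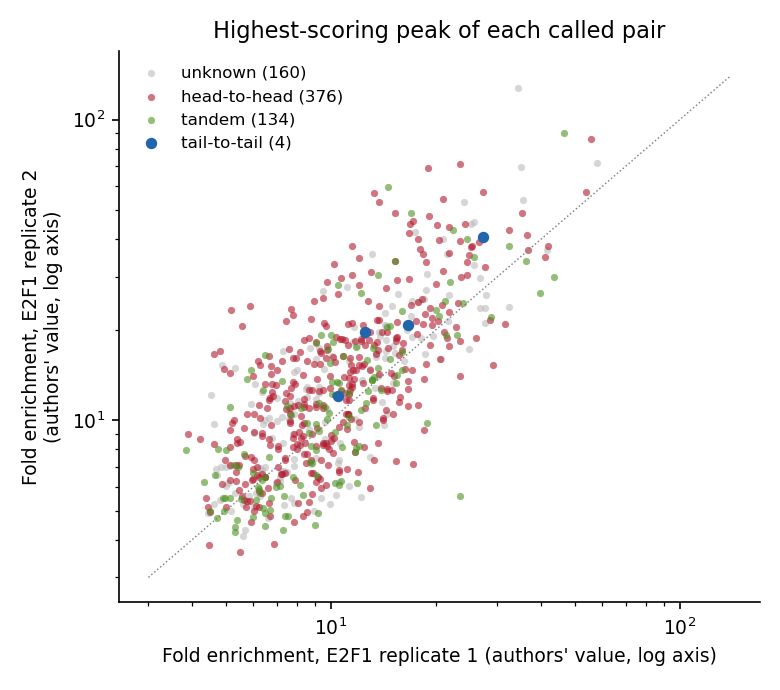
Fold enrichment of the highest-scoring peak of each of the 674 called pairs in E2F1 replicate 1 (horizontal, log axis) and replicate 2 (vertical, log axis), with 1 point per pair coloured by orientation and a dotted line of equal values. The orientations intermix along the diagonal, and 444 points lie above the line.

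At head-to-head pairs a single peak usually spanned both starts. There was 1 peak in 368 and 372 of the 376 called regions in E2F1 replicates 1 and 2, and the highest-scoring peak covered both gene boundaries in 279 (74.2%) and 318 (84.6%). In tandem pairs it covered both boundaries in 22.4% and 18.7%. The gaps were not matched: the median gap of called pairs was 90 bp in head-to-head and 490 bp in tandem pairs. A longer gap needs a wider peak to be covered, and its part in this difference was not tested. The summit, where the pileup is highest, seldom fell between the starts: it lay in the gap in 40 (10.6%) and 62 (16.5%) head-to-head regions, and the gap made up 13.4% of the summed region length. The left gene held the summit in 151 and 150 pairs and the right gene in 173 and 148, with the few others outside the region, so the sides held similar numbers.

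Measured from the nearer start, the head-to-head summit lay a median of 169.5 bp inside the gene in replicate 1 and 101 bp in replicate 2. It was downstream of that start in 89.4% and 83.2% of pairs. Single starts had medians of 184 and 128 bp downstream, with 83.2% and 76.7% downstream. In a head-to-head pair every position outside the gap is downstream of the nearer start, while a single start has open sequence upstream. The medians and downstream shares of both classes are therefore not set against each other. Summits within 200 bp of a start made up 63.0% and 76.3% at head-to-head pairs and 48.3% and 60.6% at single starts, although a pair offers 2 starts to be near. At tandem pairs the summit lay a median of 176.5 and 143 bp into the downstream gene, counted from the facing start, so tandem peaks followed the start and not the neighbour's end.

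Both libraries tended to place the summit on the same gene of the pair. In 305 head-to-head pairs the summit lay outside the gap in both, and in 270 of these (88.5%) it lay on the side of the same gene, with 35 on opposite genes. The shift of the summit between replicates had a median of 69.5 bp and was at most 100 bp in 246 of 376 pairs (65.4%). In replicate 1 the summits of head-to-head pairs formed a group on each side of the gap with fewer at its middle, and within 200 bp of the middle were 41.2% in replicate 1 and 57.4% in replicate 2.

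**Figure D5:**
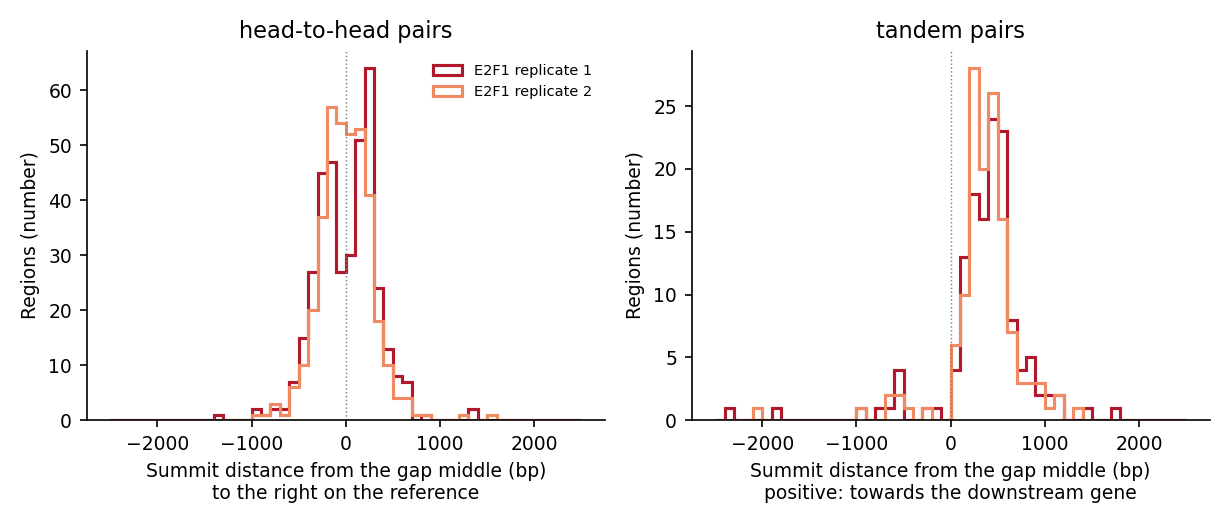
Distance of the peak summit from the middle of the gap (horizontal axis, bp, in bins of 100 bp) at called head-to-head and tandem pairs in E2F1 replicates 1 and 2 (vertical axis, number of regions). Head-to-head summits lie on both sides of the middle, and tandem summits lie mostly on the side of the downstream gene.

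The E2F core was found in 27.3% of promoter windows at called head-to-head starts and in 13.8% at the others. Over the promoter windows of all 17492 protein-coding genes with one, of equal length, it was found in 12.2%. Single starts had it in 22.6% when called and 6.70% when not, and tandem facing starts in 25% and 10.5%. Read the other way, 188 of 236 head-to-head starts with a core (79.7%) and 500 of 801 without one (62.4%) were called. Of single starts, 57.6% (880 of 1529) with a core and 3007 of 12040 without one were called. Most called head-to-head starts therefore have none of the 4 core sequences in the window searched. That window ends 50 bp after the annotated start. The median head-to-head summit lay 169.5 and 101 bp downstream of the nearer start in E2F1 replicates 1 and 2. Many summits thus lay beyond the window of that start, and a missing core there says nothing about the sequence under them. A longer form with 1 more T in front, TTTCCCGC, TTTCGCGC, TTTGCCGC or TTTGGCGC, each of which contains a core, occurred in 6.25% of called and 3.72% of other head-to-head windows and in 2.94% of all windows.

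The gaps themselves were searched as well, and they are shorter than the promoter windows, so their shares are not set against those of the windows. Among gaps of 10 to 100 bp it stood in 8 of 179 called pairs (4.47%) and in 0 of 41 with a peak in neither list. Among gaps of 101 to 250 bp it stood in 12 of 95 (12.6%) and in 3 of 40 (7.5%). The called gaps were richer in CpG, with medians of 9.86 and 8.74 per 100 bp for the shorter and longer gaps, against 7.32 and 5.99 for gaps in neither list.

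Letters of other promoter factors were counted in the same windows. CCGGAAG, a form bound by ETS factors, occurred in 28.7% of head-to-head windows (30.5% when called and 25.2% when not), in 10.5% of single-start windows and in 11.9% of all. CCAAT, bound by NF-Y, occurred in 42.2% of called and 53.6% of other head-to-head windows, against 39.2% of all. Partner windows overlap in many pairs, so a match can count for both genes, and a match is a description of letters and no site.

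The 10 called pairs with the highest mean score percentile were of mixed content and orientation. Slbp/Tmem129, a tandem pair with a gap of 641 bp, joins the stem-loop-binding protein of histone mRNA and a ubiquitin ligase. Its folds were 46.5 and 90.5, at rank 6 of both lists. Tcf19/Cchcr1 had folds of 55.6 and 86.4. Fbxo45/Wdr53, of unknown orientation, had folds of 34.3 and 127.7. P2rx3/Ssrp1 joins an ATP-gated channel and a subunit of the FACT histone chaperone, and had folds of 57.9 and 71.7. Pcna/Cds2 joins the sliding clamp of replication and an enzyme of phospholipid synthesis, and had folds of 54.0 and 57.5. Septin10/Sowahc, with a cytoskeletal septin, had folds of 42.0 and 37.9. Scrib/Puf60, Mip/Timeless, Rbmxl1/Slc10a7 and Fhl4/Tmem263 complete the 10.

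Pcna has a close neighbour at each side. Its start faces Cds2 across 157 bp and was called. Its end faces the start of Tmem230 across 226 bp, and that region had a peak in neither list. Both regions thus hold a start, so they do not set a start against an end alone. Mip/Timeless is a tandem pair whose lens water channel lies beside a replication-fork protein, with folds of 36.3 and 34.0. Slbp, Pcna and Timeless belong to the same list of replication genes.

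Replication genes were paired in 28 cases, and 17 of those pairs were called (60.7%, against 33.5% of all pairs). By orientation, 8 of 8 head-to-head, 4 of 7 tandem, 0 of 7 tail-to-tail and 5 of 6 pairs of unknown orientation were called. Over all pairs the shares were 66.3%, 30.2%, 0.937% and 28.0% in the same order. Dbf4/Slc25a40, with the activating subunit of the Cdc7 kinase, had a gap of 4 bp and folds of 15.3 and 49.0. Mcm4/Prkdc joins a subunit of the replicative helicase to the catalytic subunit of DNA-dependent protein kinase across 43 bp, with folds of 21.6 and 35.7. Cops6/Mcm7 and Wsb2/Rfc5, whose ends face each other, had no peak between the genes. Ccna2/Bbs7, of unknown orientation, with cyclin A2, had a peak in neither list. Single starts of the same list were called in 52 of 59 cases (88.1%), beside 26.7% of all single starts.

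DNA repair genes were paired in 52 cases, with 33 called, beside 33.5% of all pairs. Of these, 25 were among 27 head-to-head pairs (92.6%), beside 66.3% of all head-to-head pairs. Polh/Xpo5 joins a polymerase of translesion synthesis to a nuclear exporter of miRNA precursors and had folds of 19.2 and 47.9. Atm/Npat joins the kinase of the double-strand break response to a coactivator of histone genes, and had folds of 8.95 and 24.8 across 60 bp. Pinlyp/Xrcc1, with the scaffold protein of single-strand break repair, had folds of 21.8 and 36.1 across 30 bp. The 2 uncalled head-to-head pairs were Ndufaf2/Ercc8, with a fold of 7.71 in replicate 1 only, and Cetn2/Nsdhl, in neither list. Hscb/Chek2, of unknown orientation, with a checkpoint kinase, had a peak in replicate 2 only, with a fold of 7.56. Single starts of repair genes were called in 32 of 49 cases (65.3%), beside 26.7% of all.

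Genes of G2 and mitosis were paired in 33 cases, with 21 called (63.6%, against 33.5% of all pairs), 12 of them among 14 head-to-head pairs (85.7%, against 66.3% of all). Ndc80/Spdya joins a kinetochore protein to an activator of cyclin-dependent kinases and had folds of 27.3 and 57.3. Ncapd2/Mrpl51, a condensin subunit beside a protein of the mitochondrial ribosome, had folds of 41.0 and 34.9. Rhno1/Foxm1, with the transcription factor of mitotic genes, had folds of 25.7 and 45.8. Hmmr/Nudcd2 was listed in replicate 1 only, with a fold of 9.66, and Cenpj/Parp4 in neither. Plk1/Ern2, with the mitotic kinase PLK1 and no strand for Ern2, also had a peak in neither list. The end of Plk1 faces that gap and its start is the far boundary, so this region does not describe the Plk1 start. Single starts of this list were called in 68 of 82 cases (82.9%), against 26.7% of all.

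Among RB and E2F regulators, 3 of 5 pairs were called, a list too short to set against the 33.5% of all pairs. Rbbp4/Zbtb8os, with a histone chaperone found in RB-associated complexes, had folds of 11.5 and 30.4. Aldh6a1/Lin52, with a subunit of the MuvB complex, had folds of 11.5 and 21.0. Exoc3l/E2f4, with a family member known as a repressor, had folds of 12.2 and 5.54. Taking the 4 lists together, 72 of 116 pairs were called, and 46 of 50 head-to-head pairs (92%). Head-to-head pairs with neither gene in these lists were called in 330 of 517 cases (63.8%). Such pairs were 330 of the 376 called head-to-head pairs and 517 of all 567. Most called head-to-head pairs thus hold no gene of the cell-cycle and repair lists, as do most head-to-head pairs in general. The median percentile of the called head-to-head peaks was 60.7 with such a gene and 51.8 without.

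In the other gene lists the called share of head-to-head pairs ran from 25% to 73.1%, beside 66.3% of all head-to-head pairs. RNA-processing genes had 19 of 26 head-to-head pairs (73.1%) and 53 of 68 single starts (77.9%) called, beside 26.7% of all single starts. Hnrnpa2b1/Cbx3, an RNA-binding protein beside a heterochromatin protein, had folds of 23.5 and 71.0. Cbx5/Hnrnpa1 joins related members of both families across 38 bp, with folds of 24.9 and 35.3. Genes of the mitochondrial ribosome and respiration were frequent members, in 94 pairs, and 29 of 45 head-to-head pairs (64.4%) were called. Their single starts were called in 49 of 122 cases (40.2%), beside the same 26.7%. Proteasome genes had 5 of 7 head-to-head pairs called, among them Psmb9/Tap1, an immunoproteasome subunit beside the peptide transporter, with weak folds of 5.51 and 8.50. Collagen genes formed 3 pairs, none head-to-head.

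Cytosolic ribosomal protein genes were called in 2 of 8 head-to-head pairs (25%), beside 66.3% of all head-to-head pairs. These were Med22/Rpl7a with folds of 8.39 and 9.81 and a second one that was equally weak, Rps18/Vps52 with 7.07 and 6.98. Single starts of ribosomal protein genes were called in 25 of 45 cases (55.6%), beside 26.7% of all single starts. Replication-dependent histone genes form clusters with pairs of H2A and H2B genes head-to-head. Of 10 head-to-head pairs of this list 4 were called (40%), beside the same 66.3%, and of its 22 single starts 9 were called (40.9%). H2bc7/H2ac7 had folds of 10.8 and 16.4, while H2ac8/H2bc8 had a peak in neither list. H4c1/H3c1, of unknown orientation, was the strongest histone pair, with folds of 35.1 and 69.6. Histone genes are near-identical copies of one another, and how reads that map to several copies were treated is not given in the sources used here, so their calls are uncertain.

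Exceptions to the rule of orientation were few and were looked at one by one. Duox1/Shf, a tail-to-tail pair whose Duox1 encodes an NADPH oxidase, had folds of 27.4 and 40.8 with the summit in the region, and the nearest annotated start with known strand, that of Shf, lay 20193 and 20185 bp away. In the other 3 called tail-to-tail pairs the summit lay near a start: 139 and 163 bp from that of the short gene H2ac21 in H2ac21/H2ac20, 58 and 26 bp from that of Smim27 in Smim27/Ndufb6, and 110 and 150 bp from that of Exosc6 in Exosc6/Gm38523. In the last 2 pairs the summit lay outside the pair region. Of the 4 called outer ends, 1 lay near the start of Dact1, 1 near the start of the mitotic gene Prc1 and 1, at A930018O16Rik, in reach of its own gene's start. The fourth, at 1700067K01Rik, had folds of 5.41 and 6.59 with the summit in the window, 3202 and 3180 bp from the nearest annotated start with known strand.

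Some of the strongest peaks stood at the far side of a pair. Mdc1, a mediator of the DNA damage checkpoint in the tandem pair Mdc1/Nrm, had folds of 57.4 and 134.4 at its outer start and no peak at the gap. Raly, an RNA-binding protein in the tail-to-tail pair Raly/Eif2s2, had 52.3 and 72.1 at its outer start. Lbr, the lamin B receptor in Dnah14/Lbr, had 34.6 and 56.0. Of 383 genes that belong to 2 pairs, 1 at each side, 26 had both pairs called, 197 had 1 called and 160 had none.

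The only pair region with an EV peak was that of 2 predicted genes, Gm40364/Gm40363, on chromosome 6. EV replicate 2 listed 2 peaks there, at 47681577 to 47681869 with a fold of 2.30 and at 47682121 to 47682792 with a fold of 2.79. E2F1 replicate 1 listed a peak in the region with a fold of 2.54, below the fold of every called pair, and E2F1 replicate 2 listed none.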

How the data were processed

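ChIP-seq peak lists of 4 libraries were used, 2 of E2F1 and 2 of EV cells, grouped and numbered by their titles. Input DNA of EV cells (2 samples) was not analysed here. Per the submitters' processing notes, FastQC, Trimmomatic, Bowtie2, MACS2, ChIPseeker and the mm10 build were used. The labels' extraction protocol describes RNA. Versions, antibody, control and filters are not given in the sources used here. The deposited lists, 1 per library, hold the authors' peak score, the fold enrichment (a ratio over the local background), and, per peak, a −log10 p-value with the matching −log10 q-value. No read totals were used, so depth is unknown.

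Gene boundaries came from the RefSeq genes of GRCm38.p6, the same assembly as mm10, and strand from the RefSeq promoter windows, which cover 17492 genes (79.9%) and none on chromosome 18. In 422 of 422 head-to-head pairs with overlapping windows the sequences were reverse complements. Overlaps, shares, Wilson intervals and exact permutation tests were computed with Python 3.11.15, pandas 2.3.3, numpy 2.4.6 and scipy 1.17.1, and figures with matplotlib 3.10.9. The code was tested on simulated data. A peak counted with an overlap of at least 1 bp, and the highest-scoring peak of a region gave its fold, summit and rank. The limit for a count of 0 is 3 counts.

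Pairs were named by rule: the called pairs with the highest mean score percentile among all pairs, by orientation and in each gene list, the uncalled pairs of the cell-cycle and repair lists, textbook close pairs, the smallest gaps, pairs with an EV peak and the strongest outer-only pairs. H2ac8/H2bc8, Smpd2/Ppil6 and Klhl18/Kif9 were picked after their values were seen. Some pairs that the rule names are not reported here. The pairs, lists and tests were chosen with earlier results of these data known. Replicate numbers name libraries in both groups. With almost no EV peaks in these regions, whether they pair the libraries could not be checked. Alternatives covered the overlap rule, peak score, flank, gap, gene set, window width, outer boundaries, gene length and replicates.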

Additional observations from a re-analysis of the deposited data

How the results depend on the processing

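Of 46 alternatives for the shares and differences between regions none turned a direction. A share cannot be negative, so this has a meaning for the differences only. The 46 alternatives moved the value by less than the SD between replicates in 17 cases and by more in 29. The 12 for E2F1 minus EV cannot pass a threshold at this number of libraries and say nothing about stability. All values are percent or percentage points. The share of close pairs (33.5) was 30.7 with the summit in the region, 15.3 with peaks at or above the median score of their list, 32.4 and 34.7 with flanks of 250 and 1000 bp, 38.5 with gaps up to 500 bp, and 36.4 to 37.9 with 1 replicate left out. Facing minus outer (16.7) was, under the same settings, 15.7 by summit, 7.22 by score, 16.1 with a flank of 250 bp and 23.7 with gaps up to 500 bp. It was 16.3 without predicted genes, 15.8 with regions of outer-window width centred on the gap, 14.0 with all outer boundaries, 20.2 with genes of at least 10000 bp, and 18.1 to 18.6 with 1 replicate left out. The head-to-head share (66.3) was 62.8 by summit, 29.1 by score and 70.0 to 73.4 with 1 replicate left out. Head-to-head minus single starts (39.6) was 15.7 by score, 37.7 without predicted genes and 41.0 to 43.5 with 1 replicate left out. Alternatives chosen after seeing the data gave 16.1, 23.3, 9.84 and 12.6 for starts with 0 to 9, 10 to 19, 20 to 29 and 30 or more CpG, and 29.1 against single starts of genes in close pairs. The setting by score keeps fewer peaks by construction. A peak with its summit in the region also overlaps it, so the summit setting can only lower a share. A wider flank cannot lower a share and a narrower one cannot raise it. With 1 replicate left out, 1 list is required in place of both, so a share cannot fall. For the differences and the other settings the cause was not tested. E2F1 minus EV (37.1) was 18.3 by score and 36.4 to 37.9 with 1 library left out. With the replicate number as a block it was 37.1, and the exact test over the signs of 2 pairs gave p = 0.5, its lowest possible value. Lists end at a −log10 p near 10, so shares count strong sites only, and strand is missing for some genes.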
